A study of Mus musculus with 19 samples.

Results

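Embryonic and adult globin genes were followed across 6 stages of the Schwann cell lineage in the mouse, beside Alas2 as a gene of red cell precursors. The members were the genes Hbb-y, Hba-x, Hbb-b2, Hba-a1 and Alas2, and every probe set whose array annotation gave one of these symbols was taken. This gave 5 of the 8949 annotated genes and 9 of the 12422 probe sets that were not controls. For 6 of the 9 probe sets the annotation gave 1 symbol, and for 3 it gave several near-identical globin genes.

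All 19 samples were RNA of cells sorted by fluorescence from transgenic mouse embryos or newborns. In these mice a glial promoter drove green fluorescent protein (GFP), a marker first of crest stem cells and afterwards of glia. Each group therefore shared the transgene and the sort, and no sample came from unsorted tissue or from cells without GFP. The groups were neural crest stem cells from the trunk at embryonic day 9.5 (E9.5, 3 arrays), and cells of the sciatic nerve at E12 (3 arrays), E14 (3 arrays), E16 (4 arrays), E18 (3 arrays) and the day of birth (P0, 3 arrays). The step from E9.5 to E12 is thus a step in stage and in the body region dissected. The labels do not say which samples came from separate animals, so the p-values reflect no more than the spread among these arrays, which may be technical.

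Hemoglobin is a tetramer of alpha-like and beta-like chains, each holding a heme. In the mouse the first, primitive red cells leave the yolk sac with embryonic chains, among them the beta-like chain of Hbb-y and the alpha-like chain of Hba-x, and definitive red cells of the fetal liver and later the bone marrow carry adult chains. In each cluster the embryonic genes lie before the adult genes, and promoters, distal enhancers and erythroid factors that bind CACCC and GATA sequences control them. Alas2 encodes the erythroid form of 5-aminolevulinate synthase, the first enzyme of heme synthesis, whereas Alas1 encodes the form found in most other cells.

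The bases just before the gene starts are printed because the members' levels moved by stage in different patterns and these are the stretches where erythroid promoters carry their short elements. A promoter entry was found for 4 of the 5 members. Hbb-b2 is named only, and Hbb-bs, an adult beta gene that shares a probe set with it, is printed beside the others. Each line gives the 120 bases before the start, 5′ to 3′ on the gene's own strand, from RefSeq on GRCm38.p6. Capitals mark the motif CACCC, the box CCAAT, the motif GATA and the box TATAA on either strand.
Hbb-y, chr7:103853208-103853327, minus strand: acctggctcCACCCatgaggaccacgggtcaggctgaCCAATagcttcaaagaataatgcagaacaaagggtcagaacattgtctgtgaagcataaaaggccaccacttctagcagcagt
Hba-x, chr11:32276480-32276599, plus strand: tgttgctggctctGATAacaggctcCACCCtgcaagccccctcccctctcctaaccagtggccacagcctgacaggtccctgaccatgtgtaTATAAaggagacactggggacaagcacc
Hbb-bs, chr7:103827929-103828048, minus strand: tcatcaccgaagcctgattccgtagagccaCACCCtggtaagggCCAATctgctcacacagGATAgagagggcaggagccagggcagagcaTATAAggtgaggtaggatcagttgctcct
Hba-a1, chr11:32283552-32283671, plus strand: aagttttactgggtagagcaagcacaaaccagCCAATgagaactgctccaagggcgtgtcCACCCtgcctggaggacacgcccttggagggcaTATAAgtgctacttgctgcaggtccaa
Alas2, chrX:150547297-150547416, plus strand: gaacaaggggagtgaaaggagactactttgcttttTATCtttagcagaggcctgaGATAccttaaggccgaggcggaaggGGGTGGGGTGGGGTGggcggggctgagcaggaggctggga

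All 5 windows hold a CACCC, which 31.7% of 32851 RefSeq promoter windows of this length hold on either strand. In the 4 globin windows it lies on the gene's strand, starting 111 bases before the start in Hbb-y, 95 in Hba-x, 90 in Hbb-bs and 60 in Hba-a1. In Alas2 its reverse complement, GGGTG, occurs 3 times. A CCAAT is in the windows of Hbb-y, Hbb-bs and Hba-a1, and in 21.3% of all windows. A TATAA is in those of Hba-x, Hbb-bs and Hba-a1, and in 11.8% of all. A GATA is in those of Hba-x, Hbb-bs and Alas2, and in 29.5% of all. A match describes these letters and is no measure of binding. Over the 300 bases around the start, Hba-a1 and its copy Hba-a2 share an identical run of 297 bases. The longest shared run is 14 bases for adult beta genes Hbb-bs and Hbb-bt, 12 for Hbb-y and Hbb-bs, and 10 for Hba-x and Hba-a1. Near-identical copies such as Hba-a1 and Hba-a2 can share hybridisation, so signal could not be split between them.

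Levels are model-based expression indices, a linear intensity per probe set. Indices at or below 68.5, the 25th percentile of all values and the floor used here, have no order among themselves. A probe set was tested where at least 3 arrays lay above the floor, which 10414 of the 12422 did. Of the 9 member probe sets 8 were tested. The other one (160560_at), which the annotation shares between Hbb-bt, Hbb-bs, Hbb-b2 and Hbb-b1, was at the floor on all 19 arrays, with indices from 0 to 16.3. Median indices of the 19 arrays ran from 173 to 207, and between 22.6% and 27.2% of probe sets per array were at the floor. Tests were from 1 limma fit to log2 indices over all arrays, adjusted over all 10414 probe sets by Benjamini-Hochberg and called at an adjusted p under 0.05. A fold is the ratio of geometric means of the floored indices, taken from the log2 difference, and is given as a lower bound where the lower stage had an array at the floor.

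The embryonic beta-like gene Hbb-y was at its highest at E12. In its brighter probe set (97180_f_at) the index on the 3 E9.5 arrays was 129, 396 and 511, and on the 3 E12 arrays it was 4251, 6192 and 1344. At E14 it was 3185, 975 and 563. The E12 arrays all lay above the E9.5 arrays, and the E14 arrays overlapped those of E12. The 4 E16 arrays gave 184, 167, 115 and 112, the 3 E18 arrays 115, 147 and 107, and the 3 P0 arrays 193, 173 and 149. From E16 on, every array was below every E14 array, and the lowest E9.5 array, at 129, lay within this late range. Across all 19 arrays the highest index was 58.0 times the lowest.

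The second, dim Hbb-y probe set (103535_at) was at the floor on 15 of 19 arrays. Its 4 arrays above the floor were E12 replicates 1 and 2, at 177 and 300.2, and E14 replicates 1 and 2, at 93.8 and 70.7. The correlation of log2 indices between both Hbb-y probe sets was 0.76 over the 19 arrays, given as a description since these arrays share stages and scaling.

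The embryonic alpha-like gene Hba-x (100549_at) was above the floor on 6 of 19 arrays, which again centred on E12. Its index at E9.5 was 49.9, 92.8 and 126, at E12 it was 552, 1548 and 184, and at E14 it was 204, 60.0 and 35.8. All 3 E12 arrays lay above all E9.5 arrays, and 1 E14 array lay within the E12 range. All 10 arrays of E16 and later were at the floor, at no more than 44.8. Over the 19 arrays its log2 index correlated at 0.86 with that of the bright Hbb-y probe set and at 0.95 with that of the dim one.

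The adult beta gene Hbb-b2 (103534_at) was at the floor at E9.5 and highest from E14 to E18. All 3 E9.5 arrays were at the floor, between 32.9 and 37.5. The E12 arrays gave 437, 813 and 233, and the E14 arrays gave 2332, 822 and 1094. No E14 array was below an E12 array, although E14 replicate 2 and E12 replicate 2 were nearly equal, at 822 and 813. The 4 E16 arrays gave 2056, 2495, 593 and 1770, and the 3 E18 arrays gave 1445, 2306 and 1311. At P0 the indices were 29.4, 138 and 38.9, so that 2 of 3 arrays were back at the floor and the highest was below every array of E12 to E18. The shared beta probe set (101869_s_at), which the annotation gives to Hbb-bt, Hbb-bs, Hbb-b2 and Hbb-b1 together, had a higher base and was also highest from E14 to E18, from 245 to 336 at E9.5, 1947 to 3946 at E18 and 216 to 310 at P0. Log2 indices of both probe sets correlated at 0.96 over 19 arrays and at 0.94 after each stage mean was subtracted.

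The adult alpha gene Hba-a1 (94781_at) was above the floor on all 19 arrays and moved within a smaller range. Its index was 344, 356 and 403 at E9.5 and 966, 1411 and 520 at E12. It was 1478, 859 and 872 at E14, 1009, 1672, 595 and 1662 at E16, and 1281, 2102 and 1556 at E18. At P0 it was 605, 605 and 498, above all E9.5 arrays and below all E18 arrays. The shared alpha probe set (162457_f_at), annotated to Hba-a2 and Hba-a1, ran from 32.6 to 87.1 at E9.5, from 247 to 1691 at E12, from 1180 to 2697 at E18 and from 42.2 to 277 at P0. Its log2 index correlated at 0.95 with that of Hba-a1 over 19 arrays. The highest array of the Hba-a1 probe set was 6.11 times its lowest, and the shared probe set was at the floor on 3 arrays.

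Alas2 (92768_s_at) stayed in a narrow band. Its lowest index was 118 on an E18 array and its highest was 230.2 on a P0 array, a ratio of 1.95. The stage means were 137 ± 4.78 at E9.5 (SD, n = 3), 169 ± 10.01 at E12 (n = 3), 148 ± 7.04 at E14 (n = 3), 168 ± 12.9 at E16 (n = 4), 159 ± 40.03 at E18 (n = 3) and 177 ± 52.4 at P0 (n = 3). In order of its mean Alas2 was lowest at E9.5, then E14, E18, E16, E12 and P0. The arrays of each pair of neighbours overlapped in that order, which sets the most alike stages side by side. Between consecutive stages, the E9.5 arrays (134 to 143) did not overlap those of E12 (157 to 176). The E14 arrays (140 to 152) overlapped neither those of E12 nor those of E16 (154 to 185). None of these differences was called in the fit to all arrays. The mean index of Alas2 over all arrays was 160, above the floor of 68.5 and below the array medians of 173 to 207. An index above the floor does not by itself show expression. Whether the Alas2 signal exceeded background was not tested.

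**Figure D1:**
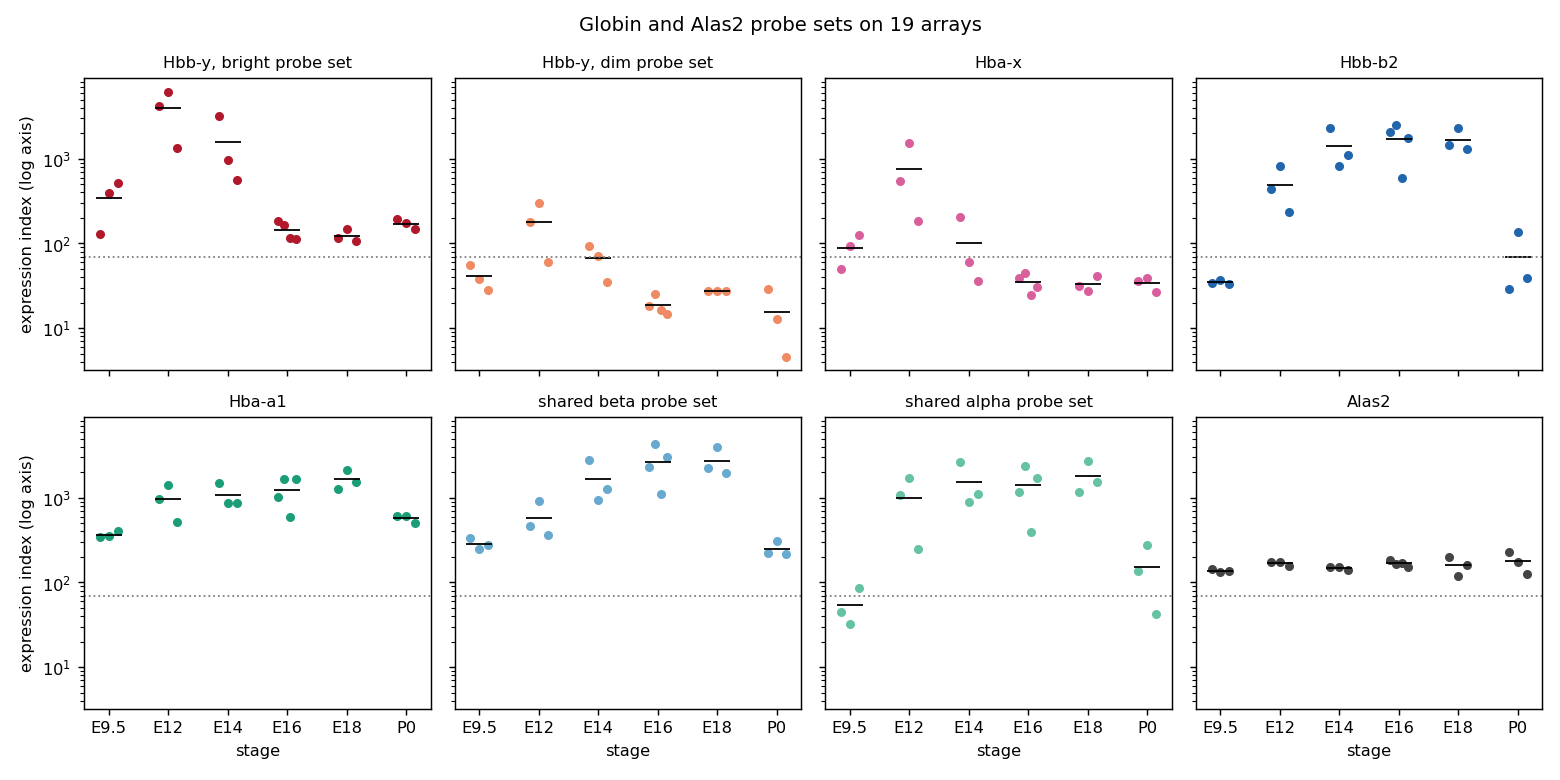
Index of each member probe set on each of the 19 arrays, on a log axis, with stages in order along the horizontal axis; each point is 1 array, the short bar is the stage mean and the dotted line marks the floor of 68.5. The embryonic genes Hbb-y and Hba-x peak at E12, and the adult beta probe sets are highest from E14 to E18 and low again at P0. The adult alpha probe sets are higher at E12 than at E9.5, overlap from E12 to E18 and are lower at P0 than at E18. Alas2 lies between 118 and 230.2 throughout.

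Over the 6 stages, 7 of the 8 tested member probe sets passed limma's F-test, where 29% of all tested probe sets did. The dim Hbb-y probe set passed narrowly (limma adjusted p = 0.0497), and the count was 6 in 18 of the 19 fits that left out 1 array. Over the 5 nerve stages 5 of 8 passed, where 13.1% of all did. The adjusted p from limma over 6 stages was 2.7e-06 for Hbb-b2 and 3.6e-05 for Hbb-y (bright probe set). For Alas2 it was 0.65 over 6 stages and 0.87 over the nerve stages. Alas2 was the one tested member probe set without a call over the 6 stages.

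From E9.5 to E12 both embryonic and adult globin genes among the members rose. Of the 8 tested member probe sets 6 were called higher and none lower, where 14.1% of all tested probe sets were called and 9.7% were called upward. Hbb-y rose by 3.47 on the log2 scale (SE 0.61, bright probe set, limma adjusted p = 0.00079) and by at least 2.25-fold in its dim probe set (adjusted p = 0.026). Hba-x rose by at least 5.81-fold (log2 2.54, SE 0.54, limma adjusted p = 0.0037). In bulk RNA a change in the number of cells of a type and a change in RNA per cell cannot be told apart.

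Of the 4 adult probe sets 3 rose in the same interval. Hbb-b2 was at least 6.36-fold higher at E12 (log2 2.67, SE 0.52, limma adjusted p = 0.0021), and the shared alpha probe set at least 10.3-fold higher (log2 3.37, SE 0.72, adjusted p = 0.0039). Hba-a1 rose 2.43-fold (log2 1.28, SE 0.38, limma adjusted p = 0.033). The shared beta probe set was higher by 0.93 (SE 0.47) and did not pass (adjusted p = 0.24). Alas2 was higher by 0.30 on the log2 scale (SE 0.20, 95% interval -0.12 to 0.72, limma adjusted p = 0.39), and passed in a fit to the arrays of E9.5 and E12 alone (adjusted p = 0.042). The calls of Hba-a1 and of the dim Hbb-y probe set were lost without any 1 of the 3 E9.5 arrays, without E12 replicate 1 and without E12 replicate 2, at adjusted p from 0.062 to 0.17 for Hba-a1 and from 0.065 to 0.14 for Hbb-y. Without E9.5 replicate 1 the bright Hbb-y probe set differed by 2.87, and without E12 replicate 4 by 4.11. Hba-x differed by 1.78 without E12 replicate 2 and by 3.32 without E12 replicate 4, and the shared alpha probe set by 4.18 without the latter.

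From E12 to E14 the embryonic alpha-like gene fell. Hba-x dropped by at least 5.47-fold (log2 -2.45, SE 0.54, limma adjusted p = 0.020). It was the one called member of 8, where 2.09% of all tested probe sets were called, 1.02% downward, and it was not called without E12 replicate 1, E12 replicate 2, E14 replicate 2 or E14 replicate 3 (adjusted p from 0.071 to 0.12). Its difference was -1.69 without E12 replicate 2 and -3.23 without E12 replicate 4. Hbb-y was lower by 1.45 (bright probe set, SE 0.61, adjusted p = 0.38), with overlapping arrays. Hbb-b2 was higher by 1.55 (SE 0.52, limma adjusted p = 0.20) and the shared beta probe set by 1.46 (SE 0.47, adjusted p = 0.17). For both adult beta probe sets the groups did not overlap, yet neither passed, and the share of all probe sets without overlap was not counted. Hba-a1 differed by 0.21 (SE 0.38, 95% interval -0.59 to 1.02). Within single lots of arrays, with 1 array per stage, Hbb-b2 was 2.42 higher at E14 in lot 1 and 0.02 higher in lot 2.

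From E14 to E16 Hbb-y fell by 3.10 (bright probe set, SE 0.57, limma adjusted p = 0.0060). It was again the one member of 8 that passed, where 1.69% of all were called, 1.1% downward. Without E14 replicate 1 the difference was -2.40 (adjusted p = 0.047). Within lot 1 it was lower by 4.19 and within lot 3 by 2.29. The adult genes were not called. Hbb-b2 differed by 0.25 (SE 0.49) and Hba-a1 by 0.14 (SE 0.36). Hba-x was already at the floor on 2 of 3 E14 arrays. From E16 to E18 no member was called, and none had an unadjusted p under 0.05 in limma, where 0.0768% of all tested probe sets were called and 8.07% had an unadjusted p under 0.05. The limma estimates there had wide intervals, from -0.94 to 1.14 for Hbb-b2 and from -1.41 to 0.99 for Hbb-y.

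At birth the adult beta genes fell. Between E18 and P0 Hbb-b2 dropped at least 18.9-fold (log2 -4.24, SE 0.52, limma adjusted p = 0.0023) and the shared beta probe set dropped 10.5-fold (log2 -3.39, SE 0.47, adjusted p = 0.0069). These were the 2 called members of 8 tested, where 0.125% of all tested probe sets were called in either direction and 0.0864% downward. Within lot 1 Hbb-b2 was lower by 4.40 and within lot 3 by 3.25, with 1 array per stage. The call of the shared beta probe set was lost without E18 replicate 2 (adjusted p = 0.082) and without P0 replicate 1 (adjusted p = 0.051). The adult alpha probe sets were also lower, without a call. The shared alpha probe set was at least 12.4-fold lower (log2 -3.63, SE 0.72, limma adjusted p = 0.066). Hba-a1 was 2.84-fold lower (log2 -1.51, SE 0.38, limma adjusted p = 0.13). The groups did not overlap in either, and the share of all probe sets without overlap was not counted. Hbb-y, low at both stages, was 0.49 higher (SE 0.61, adjusted p = 0.81), and Alas2 was 0.14 higher (SE 0.20, adjusted p = 0.84).

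Over the whole nerve series, from E12 to P0, 5 of 8 member probe sets were called lower and none higher, where 16.4% of all tested probe sets were called and 11.8% were called downward. Hbb-y fell by 4.26 (bright probe set, SE 0.61, limma adjusted p = 0.00013), a fold of 19.2, and Hba-x by at least 7.88-fold (adjusted p = 0.0011). Hbb-b2 fell by at least 5.04-fold (log2 -2.33, SE 0.52, limma adjusted p = 0.0058). The shared alpha probe set (at least 5.58-fold, adjusted p = 0.026) and the dim Hbb-y probe set (at least 2.25-fold, adjusted p = 0.024) also passed, and both calls were lost without E12 replicate 1, E12 replicate 2 or P0 replicate 1, the first also without P0 replicate 4 and the second without P0 replicate 3 (limma adjusted p from 0.064 to 0.13 and from 0.059 to 0.12). Without E12 replicate 4, Hbb-y (bright probe set) differed by -4.91, Hba-x by -3.76 and the shared alpha probe set by -3.30, and without E12 replicate 2 Hba-x differed by -2.22. Hba-a1 was lower by 0.65 (SE 0.38, adjusted p = 0.27) and Alas2 differed by 0.03 (SE 0.20, 95% interval -0.40 to 0.45). Every call named for single intervals and for E12 to P0, apart from Hbb-y (bright probe set) over E12 to P0 and, over E9.5 to E12, Hbb-y (bright probe set), Hbb-b2 and the shared alpha probe set, was lost in a fit to the arrays of the compared stages alone.

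**Figure D2:**
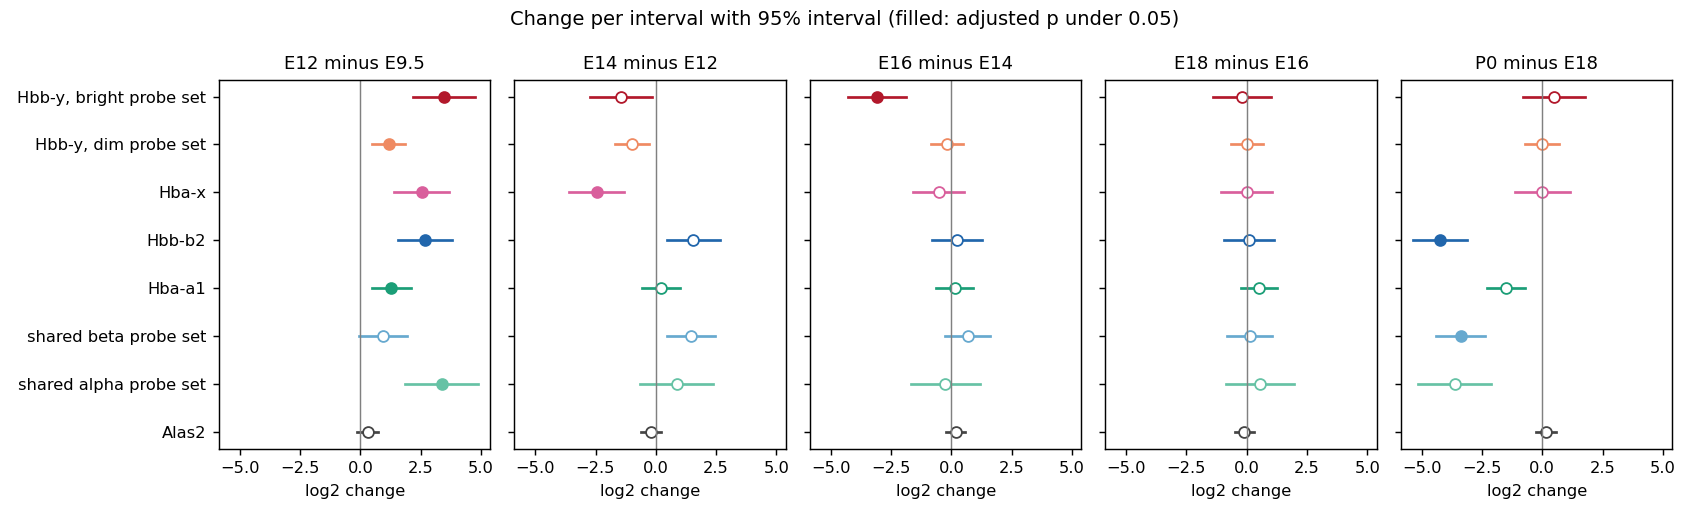
Log2 difference between consecutive stages for each tested member probe set, later minus earlier, with 95% intervals from limma; filled points passed an adjusted p of 0.05. Embryonic genes fall between E12 and E16, adult beta genes fall between E18 and P0, and Alas2 lies near 0 in every interval.

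The balance of embryonic against adult chains was followed as the log2 ratio of both probe sets on the same array. Only its change between arrays carries meaning, since each probe set has its own scale. For Hbb-y (bright probe set) over Hbb-b2 the ratio was 2.91 ± 0.38 at E12 (SD, n = 3), -0.09 ± 0.76 at E14 (n = 3), -3.44 ± 0.75 at E16 (n = 4) and -3.75 ± 0.20 at E18 (n = 3). The E12, E14 and E16 arrays did not overlap in this ratio, while the E16 and E18 arrays did. At P0 it was 0.98 ± 0.60 (n = 3), where Hbb-b2 was at the floor on 2 arrays, so that these are lower limits. At E9.5, with Hbb-b2 at the floor on all 3 arrays, the lower limits ran from 0.91 to 2.90. The return at P0 came with low Hbb-b2, not with high Hbb-y, whose 3 P0 arrays were between 149 and 193. Over the shared beta probe set, with no value at the floor, the mean ratio was 0.06 at E9.5, 2.60 at E12 and -0.31 at E14. It was -4.09 at E16, -4.41 at E18 and -0.53 at P0, and the E12, E14 and E16 arrays again did not overlap. For the dim Hbb-y probe set over Hbb-b2, E14 arrays (-4.64 to -3.54) overlapped E16 arrays (-5.19 to -3.11). That probe set was at the floor on all 4 E16 arrays.

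For Hba-x over Hba-a1 the ratio was -0.72 ± 0.82 at E12 (SD, n = 3), with arrays from -1.50 to 0.13. At E9.5 it was -2.33, -1.94 and -1.68, the first with Hba-x at the floor, below every E12 array. Over the shared alpha probe set the ratio had a mean of 0.32 at E9.5, with values at the floor on 2 of 3 arrays, and of -0.50 at E12, so the direction of this step differed between the alpha probe sets. From E14 on, Hba-x was at the floor on all but 1 array, so its ratios there are upper limits, with a mean of -3.39 in E14 arrays, -4.05 in E16, -4.56 in E18 and -3.05 in P0 arrays. Every E12 array lay above every later array. From E12 to E18 the beta-like ratio shifted by -6.66. The alpha-like shift was -3.83 or lower, since Hba-x was at the floor on all 3 E18 arrays, so the sizes of both shifts cannot be compared.

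**Figure D3:**
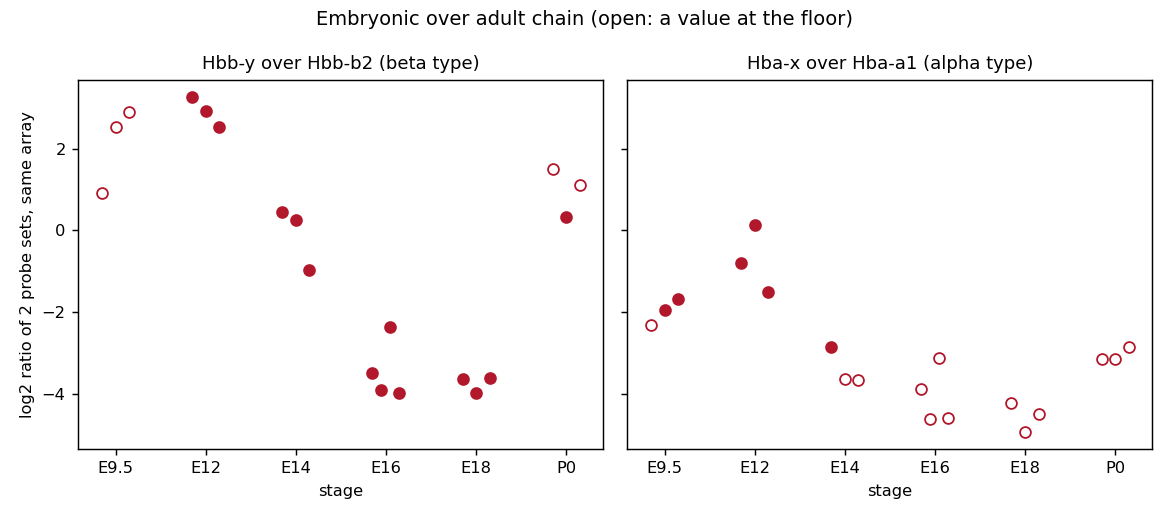
Log2 ratio of embryonic to adult chain on each array, Hbb-y over Hbb-b2 and Hba-x over Hba-a1, by stage; open points are arrays where 1 of both probe sets was at the floor. The beta-like ratio drops from 2.91 at E12 to -3.75 at E18 and lies at 0.98 at P0.

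Arrays of the same stage differed widely in globin levels. The within-stage SD of log2 indices was 0.97 for the shared alpha probe set, 0.82 for Hbb-y (bright probe set), 0.72 for Hba-x and 0.71 for Hbb-b2, which are percentiles 99.5, 98.7, 97.5 and 97.1 among all tested probe sets, whose median SD was 0.31. For Alas2 it was 0.24, at percentile 30.2. At E12 and E14 the globin probe sets shared this spread. E12 replicate 2 was the highest and E12 replicate 4 the lowest E12 array in 7 of 7 globin probe sets, and E14 replicate 1 was the highest of its stage in 7 of 7. E16 replicate 2 was the highest and replicate 3 the lowest in all 4 adult probe sets. At the other stages the order could not be read over all 7, since some probe sets were at the floor on every array. These were Hbb-b2 and the dim Hbb-y probe set at E9.5, and Hba-x and the dim Hbb-y probe set at E18 and P0. Among the 4 adult probe sets, E18 replicate 2 was the highest of its stage in 4 and P0 replicate 3 in 3. After stage means were subtracted, Hbb-y (bright probe set) and Hbb-b2, which correlated at 0.05 over the 19 arrays, correlated at 0.60. Alas2 correlated with the globin probe sets at no more than 0.20 over the 19 arrays. These correlations are descriptions over arrays that share stage, scaling and, in part, lot.

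Among 9207 probe sets of other genes, those most like each member over the 19 arrays were named by Pearson's r of log2 indices. For Hbb-y (bright probe set) the 5 closest were Laptm5 (r = 0.94), Ctss, Lgmn, Ccl3 and C1qc (r = 0.91), of which Ctss encodes a lysosomal protease and C1qc a chain of complement C1q. For Hba-x they were Sh3yl1 (r = 0.97), Rgl1, Shox2, Itpr2 and Cyp1b1. Hba-x was at the floor on 13 of 19 arrays, and Sh3yl1 reached no more than 87.2, so this r rests on few arrays above the floor. For Hbb-b2 they were Brip1os (r = 0.79), Tenm3, Cnn3, Rab33b and Sptbn1. For Hba-a1 they were Hspa1a (r = 0.77), Bpifb1, Ndel1, Plekhb2 and Axl, and for Alas2 Ereg (r = 0.79), Got1, Hand1, Rps24 and Snn. No gene stood in more than 1 of these lists, which also reflect shared patterns over the stages. After stage means were subtracted, the 5 closest to Hbb-y (bright probe set) were Phlda2 (r = 0.86), Wwc1, Glns-ps1, Ccl7 and Ccl3. In that measure Wwc1 was also among the 5 closest to Hba-x, and Faf1 among those of both Hba-a1 and Hbb-b2.

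Other genes of the red cell were read from lists. Among 12 tested genes of heme synthesis and iron uptake, 2 were called higher at E12 than at E9.5 and none lower. Over all tested probe sets 14.1% were called there and 9.7% were called higher. The median log2 difference was 0.15 in the list and 0.01 over all tested probe sets. The called genes were Alas1, the ubiquitous form of the enzyme (log2 1.21, SE 0.27, limma adjusted p = 0.0060), and Fech, which inserts iron into heme (log2 0.84, SE 0.22, adjusted p = 0.016). Alas1 fell again from E14 to E16 (log2 -1.36, SE 0.26, adjusted p = 0.0071), and its stage means were 244, 559, 877, 345, 470 and 395 from E9.5 to P0. No gene of this list was called in the other 4 comparisons. Alas1 was thus called in 2 of the 6 comparisons and Alas2 in none.

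Among 14 tested genes of the red cell membrane and its enzymes, 2 were called higher and 1 lower from E9.5 to E12, where 14.1% of all tested probe sets were called, with a median of 0.00. They were Rhd (log2 0.60) and Cat, which encodes catalase (log2 0.98), and, downward, Car2, a carbonic anhydrase (log2 -0.82). Rhd fell from E14 to E16 (log2 -0.73) and Cat was lower at P0 than at E12 (log2 -0.96). No member of this list was called in the other 3 comparisons, and Slc4a1, the anion exchanger of the red cell membrane, ranged from 48.3 to 213 over the 19 arrays. Slc4a1 is named here after its values were seen. Of the 25 listed genes 11 had no probe set with 1 symbol.

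Among 15 tested genes of erythroid transcription and signalling, 2 were called higher and 1 lower from E9.5 to E12, where 14.1% of all tested probe sets were called, with a median of 0.12. Klf3, which binds CACCC elements and also acts outside red cells, rose by 2.47 (SE 0.34, limma adjusted p = 7.9e-05), fell by 1.49 from E12 to E14 (adjusted p = 0.025) and was lower by 1.51 at P0 than at E12 (adjusted p = 0.0055). Lyl1 rose by 0.48 and Kit, a growth factor receptor, fell by 1.17. Klf1 and Gata1, whose products drive globin transcription, were above the floor on all 19 arrays and not called in any of the 6 comparisons, with indices from 608 to 887 for Klf1 (100452_at) and from 287 to 474 for Gata1 (102654_at). A second Gata1 probe set (161456_f_at) ranged from 106 to 185. The floor is a percentile of all values, so an index above it does not show that a gene is expressed. Klf1 and Gata1 are named after their values were seen. Tal1, Nfe2, Myb and Ikzf1 did not reach the filter. Hbb-bh1, another embryonic beta-like gene (103533_at), ranged from 207 to 500.5 and was not called in any comparison. Its mean index was 316 at E9.5, 237 at E12 and 367 at E14, so it did not share the E12 peak of Hbb-y and Hba-x.

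Markers of other cells that the sort could hold were read beside the globins. Of 14 tested macrophage markers 6 were called higher and 1 lower from E9.5 to E12, with a median of 0.68. Over all tested probe sets 14.1% were called there and 9.7% were called higher. Ctss rose by 3.33, Laptm5 by 1.67, C1qc by 1.66 and Csf1r, the receptor of a macrophage growth factor, by 1.13. From E14 to E16 Ctss fell by 2.19. Of the 14, 4 were called lower at P0 than at E12, Ctss, Laptm5, C1qc and Csf1r, where 11.8% of all tested probe sets were. The summed index of the list ran from 2301 to 2598 at E9.5, 3348 to 6444 at E12, 2866 to 4686 at E14, 2475 to 2927 at E16, 2433 to 3136 at E18 and 2447 to 2816 at P0. It was thus high at the stages where Hbb-y was high. The defining markers Lyz2 and Fcer1g did not reach the filter and were at the floor on all 19 arrays. The part of these cells in the globin levels was not tested.

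Of 9 tested endothelium markers 1, Emcn, was called, lower at E12 than at E9.5 (log2 -1.14), and none in the other 5 comparisons. Between E9.5 and E12 14.1% of all tested probe sets were called. Of 3 platelet and megakaryocyte markers none was called in the 6 comparisons. Of 12 leukocyte markers none was called in the 5 single intervals, and 3, Cd3e, Cd79a and S100a9, were higher at P0 than at E12. Between E12 and P0 16.4% of all 10414 tested probe sets were called, and 472 were called higher. The summed endothelium index ran from 1651 to 1863 at E9.5, 1828 to 2213 at E12, 1777 to 2405 at E18 and 1540 to 2225 at P0. From E18 to P0 the median log2 difference of the endothelium list was -0.22, beside 0.01 over all tested probe sets.

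The glia list checked the labels. Sox10, a transcription factor of neural crest and glia, was above the floor on all 19 arrays, from 727 to 3256 (102856_at). Erbb3, the receptor of the axonal signal neuregulin, ranged from 1589 to 5097 (96771_at). Second probe sets of these genes ranged from 169 to 454 (Sox10, 100283_at) and from 85.7 to 173 (Erbb3, 101776_at). Of 10 tested glia markers 3 were called higher at E12 than at E9.5, where 9.7% of all tested probe sets were. Pmp22, a protein of peripheral myelin, rose by 3.33 from E12 to E14, and Mbp, myelin basic protein, by 2.30. From E14 to E16 1 was called higher, Mbp, and 2 lower, Fabp7 (log2 -2.25) and Gfra3 (log2 -1.55). From E12 to P0 4 were called higher and 2 lower, again Fabp7 (log2 -4.81) and Gfra3 (log2 -3.02). Over all tested probe sets 1.69% and 16.4% were called in these 2 comparisons. None of the 10 was called from E16 to E18 or from E18 to P0. S100b was at the floor on 16 of 19 arrays.

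Transcript integrity was read beside these results. The ratio of GAPDH signal at the 3′ end over the 5′ end, which grows as transcripts are shortened, was 2.33 to 3.41 at E9.5, 3.18 to 4.53 at E12, 5.10 to 6.23 at E14, 3.84 to 9.12 for E16 arrays, 4.11 to 4.83 for E18 arrays and 4.69 to 7.69 for P0 arrays. With this ratio as a covariate Hba-a1 and the dim Hbb-y probe set lost their calls from E9.5 to E12 (limma adjusted p = 0.12 and 0.083), the shared alpha probe set was called from E18 to P0 (adjusted p = 0.021) and the shared beta probe set from E12 to P0 (adjusted p = 0.034). All other member calls between stages were as before, and the F-test over the nerve stages called 6 members in place of 5. The difference between P0 and E12 was then -3.00 for Hbb-b2 and -3.46 for the shared alpha probe set, whose difference between E12 and E9.5 was 2.57.

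**Figure D4:**
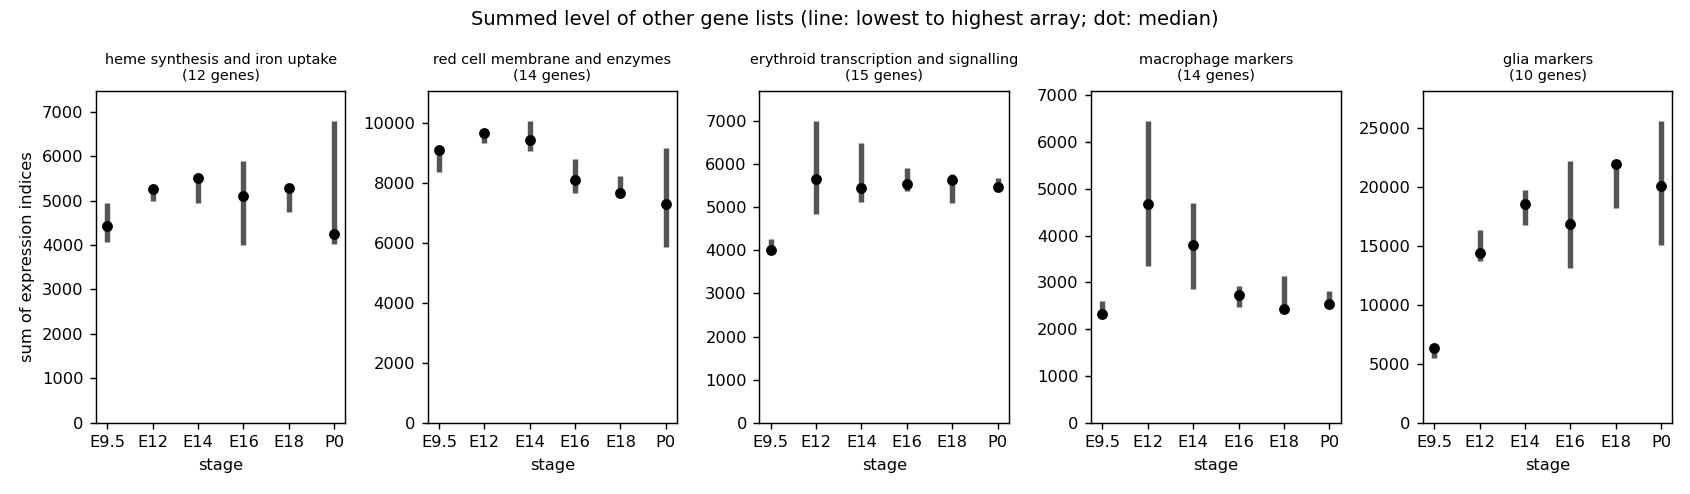
Sum of the expression indices of the tested genes of 5 lists by stage, on linear axes from 0; each line runs from the lowest to the highest array of the stage and the dot is the median. The median macrophage sum is highest at E12, with arrays from 3348 to 6444, and the glia sum is lowest at E9.5, at 5500 to 6392.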

How the data were processed

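Per the labels' protocols, RNA of sorted cells was amplified by 2 rounds of in vitro transcription, labelled with biotin and hybridised to Affymetrix arrays. The authors scanned with MAS 5.0, normalised with dChip (smoothing spline) and deposited a model-based expression index per probe set, a linear intensity, with probe sensitivities taken from 18 arrays. 19 arrays were analysed here. Probe sets were named through the platform annotation (10833 with 1 symbol, 396 with several, 1193 with none), and 66 control probe sets were left out. The rule for named genes took all member probe sets, up to 4 called genes per list and the 5 genes most like each member.

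Indices were raised to a floor at the 25th percentile (68.5), taken to log2 and fitted with limma 3.58.1 in R 4.3.3, with 1 mean per stage (13 residual degrees of freedom), which was also tested on simulated data. Tests were 2-sided with Benjamini-Hochberg adjustment. The 19 arrays limit the precision. Alternatives were other floors, an added offset of 50, no filter, other scalings, lot or replicate blocks, a GAPDH covariate, array weights, a trended robust fit, fits to the compared stages alone and leaving out arrays. The members and gene lists were chosen with earlier results of these data known. The gene whose promoter drove the reporter is not reported here.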

Additional observations from a re-analysis of the deposited data

How the results depend on the processing

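No called member value changed sign under any alternative, and 864 of 922 member values kept their side of the threshold. Some values without a call changed sign, among them Alas2 from E12 to P0 in 6 of 19 alternatives and Hba-a1 from E12 to E14 in 3 of 19. The count of member probe sets called from E12 to E14 was 1, and became 0 without the filter, 4 with array weights and 0 with only the 2 stages compared (0 to 2 with 1 array left out). From E14 to E16 it was 1, and 0 with only those 2 stages (1 to 1 with 1 array left out). From E18 to P0 it was 2, and 4 with array weights and 0 with those 2 stages (1 to 3 with 1 array left out). From E12 to P0 it was 5, and 3 when lot 1 was left out at E16 and P0 and 1 with those 2 stages (3 to 5 with 1 array left out). From E9.5 to E12 it was 6, and 5 with the lot as a block, 4 with the GAPDH covariate, 4 with those 2 stages and 7 with array weights (4 to 6 with 1 array left out). The E12 to E18 shift of Hbb-y over Hbb-b2 was -6.06 with an offset of 50, and that of Hba-x over Hba-a1 was -4.89 with the floor at the 10th and -2.92 at the 40th percentile. Floors at the 10th and 40th percentile moved the bounds on genes at the floor: Hbb-b2 differed by 3.65 and 1.75 from E9.5 to E12 and by -4.92 and -3.63 from E18 to P0, and kept its calls. For these changes the cause was not tested.

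Deviations from the stage mean correlated weakly between samples with the same replicate number (38 pairs, mean correlation 0.02, 15 over 0.1). Pairs with other numbers had a mean of -0.008 (112 pairs, 35 over 0.1). The number equals the lot on every array but E16 replicate 2, which is of lot 1. Pairs of the same lot had a mean of 0.04, and pairs of other lots -0.015. What else samples of the same number share was not tested. With the replicate number as a block the calls were 6, 1, 1, 0, 2 and 5 over the 6 comparisons and 7 and 6 in the F-tests over 6 and 5 stages. Values at the floor limit Hba-x, the dim Hbb-y probe set and Hbb-b2 at E9.5 and P0.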

Other observations

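A probe set of Ank1, which encodes an ankyrin of the red cell membrane, had an index of 4064 on E12 replicate 4 and no more than 20.0 on the other 18 arrays, with 0 on 14 of them (100441_s_at, picked after its values were seen). The other Ank1 probe sets, 100439_i_at and 100440_f_at, ranged from 387 to 599 and from 186 to 381 over the 19 arrays. E12 replicate 4 was the lowest E12 array in 7 of 7 globin probe sets.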
